A study of Mus musculus with 14 samples.

Results

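The 10 genes described here are the core of the mammalian circadian clock and its best known output gene: the activators Arntl (BMAL1) and Clock, the repressors Per1, Per2, Per3, Cry1 and Cry2, the nuclear receptors Nr1d1 and Nr1d2 (REV-ERB alpha and beta), and the output transcription factor Dbp. They were chosen by name, with earlier results of these data known, as 10 of the 23375 genes in the table. All 10 passed the filter on low values. Messenger RNA of mouse brain was sequenced in 14 libraries, 2 in each of 7 groups, to compare mice that lack imprinting control regions with wild-type mice before and after birth. These control regions are differentially methylated regions (DMRs), whose parental methylation decides which parent's copy of the neighbouring genes is used. Before birth, at the stage labelled E19.5 (embryonic age in days), the groups were wild type, KO2, with the H19-DMR and the IG-DMR deleted, and KO7, labelled with deletions at 7 DMRs (those of Gnas, Grb10, Igf2r, Kcnq1, Nespas, Peg3 and Snrpn). In adults they were KO2, KO3, in which the Rasgrf1-DMR was deleted as well as the H19-DMR and IG-DMR, and 4 wild-type libraries that the labels number as 2 sets of 2. The series title ties the mice to haploid embryonic stem cells modified at DMRs, and the labels say neither how many cell clones stand behind a group nor whether the libraries of a group came from separate animals. The p-values therefore measure only the spread between these libraries, which may be technical. Neither the hour of tissue collection, the age of the adults nor the sex is given in the labels used here.

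The clock is a loop of transcription that completes one turn a day. ARNTL and CLOCK proteins bind E-box sequences as a pair and switch on the Per, Cry and Nr1d genes and Dbp; PER and CRY proteins accumulate and block the pair; NR1D1 and NR1D2 repress Arntl through elements called ROREs, so Arntl messenger RNA peaks at the opposite time of day from Dbp, Per and Nr1d. DBP in turn acts through D-boxes, which the Per genes carry. The master clock lies in the suprachiasmatic nucleus of the hypothalamus, and most other brain regions cycle weakly and mature after birth, so that the level of these genes in a piece of brain depends on hour, region and age.

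The elements through which the loop closes are shown here because the 10 genes are compared by which of them rise and fall together. RefSeq promoter windows (mouse build GRCm38.p6, 300 bases from 250 before to 50 after an annotated start) were at hand for 9 of the 10 genes, in 13 windows. Each window was searched on both strands for the E-box CACGTG, the E-prime box CACGTT, the D-box TTATGTAA or TTATGCAA, the RORE ANTAGGTCA or ANTGGGTCA and the cyclic AMP element TGACGTCA. Capitals mark the match in the stretches below, which read 5′ to 3′ on the gene's own strand, and an E-prime box on the other strand reads AACGTG.
Per1, chr11:69098763-69098952, plus strand: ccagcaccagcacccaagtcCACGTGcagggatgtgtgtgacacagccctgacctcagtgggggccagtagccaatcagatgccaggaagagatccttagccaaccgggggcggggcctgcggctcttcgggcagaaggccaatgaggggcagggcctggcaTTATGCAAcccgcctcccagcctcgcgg
Per3, chr4:151044796-151044890, minus strand: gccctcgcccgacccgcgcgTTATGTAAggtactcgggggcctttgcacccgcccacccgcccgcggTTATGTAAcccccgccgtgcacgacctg
Cry1, chr10:85185089-85185153, minus strand: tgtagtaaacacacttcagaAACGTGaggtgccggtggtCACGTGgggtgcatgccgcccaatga
Nr1d1, chr11:98775380-98775425, minus strand: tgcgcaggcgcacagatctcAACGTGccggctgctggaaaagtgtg
Arntl, chr7:113207519-113207560, plus strand: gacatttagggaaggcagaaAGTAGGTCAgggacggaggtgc

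Per1 held an E-box that begins at position -166 from the start and a D-box at -24. Per3 held a pair of D-boxes, at -205 and -158. Cry1 held an E-prime box at -79 and an E-box at -60, Nr1d1 an E-prime box at -28, and the downstream of the Arntl windows a RORE that begins at 28. Cry2 had an E-prime box at -166, not printed. Among 32851 such windows of the mouse genome 7.15% held the E-box, 4.68% the E-prime box, 1.66% the D-box, 1.45% the RORE and 1.79% the cyclic AMP element. No searched motif lay in the windows of Dbp, Clock and Nr1d2, which says only that these letters are not within those 300 bases. The matches are descriptions of sequence and were not tested for binding.

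Levels are the deposited FPKM (fragments per kilobase of transcript, scaled to the fragments mapped in the library). Between 12701 and 13398 genes reached 1 FPKM in a library, and replicates correlated between 0.9644 (adult KO3) and 0.9833 on the log2 scale. All 5 neuron markers (Snap25, Syt1, Rbfox3, Tubb3 and Map2) were at 1 FPKM or more in every library, as the label brain says. The table was handled differently for adult KO3 and adult wild-type set 2: 9994 genes (42.8%) are listed at 0 in all 4 of these libraries, 6396 of them above 0 in at least 1 of the other 10, and the smallest positive maximum among the 4 is 1.02 FPKM. The 10 clock genes are above 1 FPKM in all 14 libraries. The 4 libraries also hold cerebellum and the other 4 adult ones hold next to none: Gabra6, a receptor subunit of cerebellar granule cells, was at 47.3 and 29.1 FPKM in KO3 and 42.9 and 59.1 in set 2, and at 0 and 0.127 in KO2 and 0 in both libraries of set 1. Adult KO2 is for these reasons compared with set 1 and adult KO3 with set 2, a pairing that comes from the table and not from the labels. A differing mixture of brain regions or cells and a differing amount of RNA per cell cannot be told apart in such bulk samples.

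The activators were detected in every library. Arntl, the partner that cycles, stood at 9.44 and 8.97 FPKM in wild-type embryos, 10.3 and 9.63 in embryos with KO2, and 6.85 and 8.02 in embryos with KO7. In adults it stood at 14.2 and 13.1 in wild-type set 1, 8.98 and 7.69 in KO2, 10.3 and 10.8 in set 2, and 10.01 and 9.72 in KO3. The libraries of set 1 were the highest of all 14, and adult KO2 overlapped E19.5 KO7. Clock, which is nearly flat over the day in most tissues, read 5.85 and 6.13 FPKM in wild-type embryos, 6.10 and 6.40 in embryos with KO2, and 4.09 and 5.63 in embryos with KO7. The adult values of Clock were 10.5 and 9.53 in set 1, 10.3 and 10.05 in KO2, 14.4 and 14.2 in set 2, and 9.55 and 4.48 in KO3. Only the second KO3 library lay within the range of the E19.5 libraries.

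Of the Per genes, whose proteins carry the repressor complex, Per1 and Per3 had no overlap between the stages. Per1 stood at 8.31 and 7.23 FPKM in wild-type embryos, 12.8 and 12.9 with KO2 and 7.998 and 7.84 with KO7. Its adult values were 19.9 and 15.4 in set 1, 27.4 and 26.2 in KO2, 29.7 and 15.5 in set 2 and 21.4 and 17.4 in KO3, so that the libraries of set 2 spanned nearly the whole adult range. Per2, which also answers to light and stress hormones, read 2.29 and 2.78 in wild-type embryos, 4.65 and 3.85 with KO2 and 2.61 and 3.04 with KO7. In adults Per2 read 5.67 and 4.56 in set 1, 13.4 and 13.8 in KO2, 14.2 and 7.69 in set 2 and 8.42 and 5.29 in KO3. The lowest adult library of Per2 (set 1) was just under the highest E19.5 one (KO2). Per3, which is dispensable for rhythm in mice, was the lowest of the family before birth, at 1.96 and 2.12 FPKM in wild-type embryos, 1.64 and 1.499 with KO2 and 1.44 and 1.29 with KO7. Adult Per3 was at 8.11 and 8.09 in set 1, 13.0 and 12.8 in KO2, 10.6 and 7.92 in set 2 and 7.70 and 7.05 in KO3. These are levels per length, and the order Per1 above Per2 above Per3 held in each of the E19.5 libraries.

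The cryptochromes are the direct inhibitors of the activator pair. Cry1 stood at 9.52 and 9.40 FPKM in wild-type embryos, 8.01 and 8.22 with KO2 and 9.88 and 9.36 with KO7, against 6.17 and 6.34 in adult set 1, 7.83 and 8.13 in adult KO2, 10.4 and 7.31 in set 2 and 10.3 and 5.68 in KO3. The stages overlapped for Cry1. Cry2 stood at 18.4 and 17.9 in wild-type embryos, 18.6 and 19.4 with KO2 and 15.5 and 15.1 with KO7, against 35.2 and 30.0 in set 1, 36.4 and 36.1 in adult KO2, 38.1 and 27.1 in set 2 and 30.4 and 29.1 in KO3. No adult library of Cry2 came near the E19.5 range. The ratio of Cry2 to Cry1 was 1.57 to 2.36 in the E19.5 libraries and 2.94 to 5.71 in the adult ones.

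The REV-ERB genes and Dbp had no overlap between the stages. Nr1d1, the stronger repressor of Arntl, read 11.8 and 11.1 FPKM in wild-type embryos, 11.9 and 12.5 with KO2 and 8.78 and 7.24 with KO7. The adult values were 47.5 and 42.4 in set 1, 58.9 and 58.2 in KO2, 50.6 and 51.4 in set 2 and 41.4 and 44.0 in KO3. Nr1d2 read 5.33 and 5.22 in wild-type embryos, 6.79 and 4.60 with KO2 and 2.88 and 2.65 with KO7, and in adults 13.5 and 15.8 in set 1, 29.9 and 28.3 in KO2, 38.5 and 34.0 in set 2 and 36.7 and 22.3 in KO3. Set 1 was the lowest adult group of Nr1d2 and overlapped none of the others. Dbp, a PAR bZIP factor whose messenger RNA has one of the steepest daily rhythms known, read 3.46 and 2.23 in wild-type embryos, 4.30 and 2.63 with KO2 and 2.71 and 1.88 with KO7. Adult Dbp read 16.3 and 18.6 in set 1, 35.6 and 40.4 in KO2, 38.0 and 26.8 in set 2 and 35.6 and 28.0 in KO3. As with Nr1d2, set 1 lay below every other adult library.

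**Figure D1:**
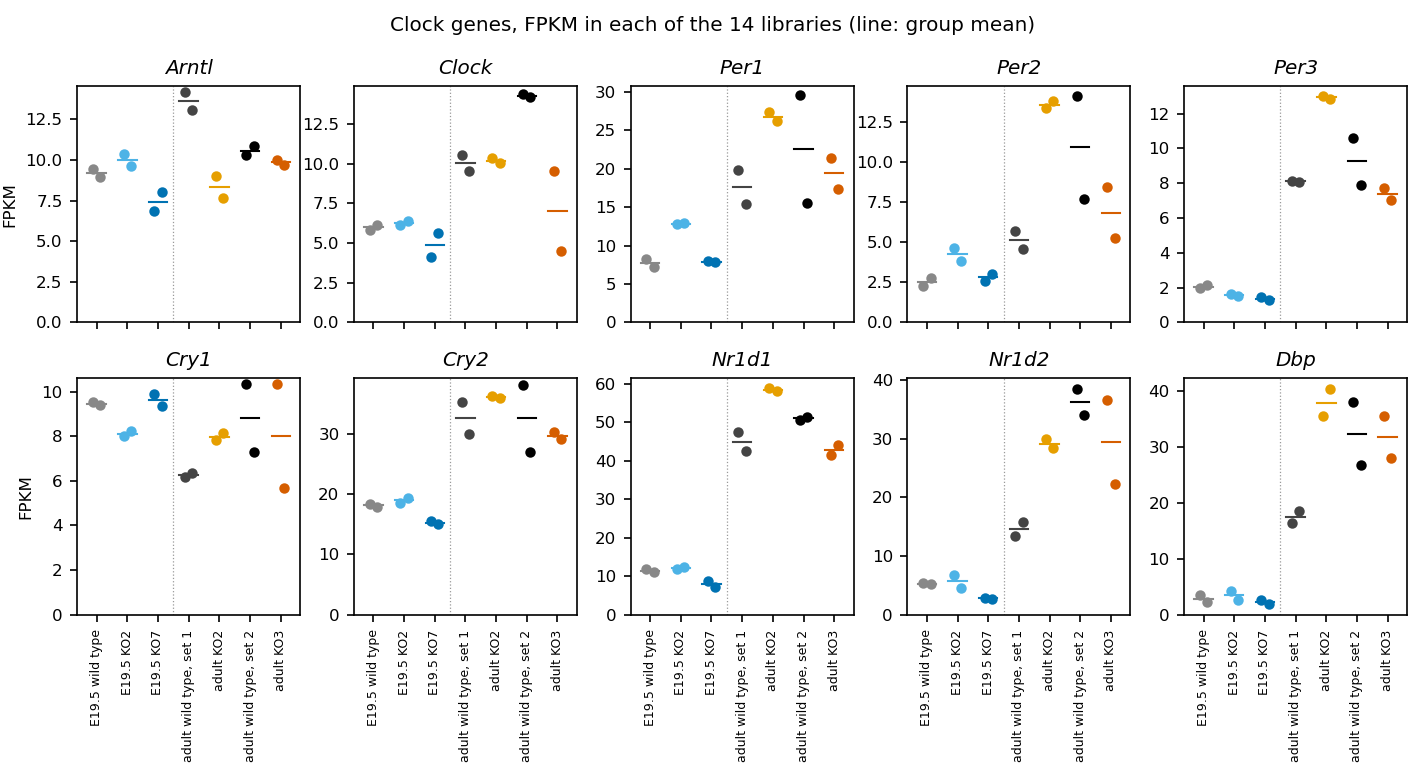
FPKM (y axis, from 0) of the 10 clock genes in each of the 14 libraries, grouped by stage and genotype on the x axis; points are libraries, short lines group means, and the dotted line separates E19.5 from adult. Per1, Per3, Cry2, Nr1d1, Nr1d2 and Dbp are above every E19.5 library in all adult libraries, while Per2, Clock, Cry1 and Arntl overlap.

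Ordered by group mean, E19.5 KO7 was lowest for 7 of the 10 genes (Arntl, Clock, Per3, Cry2, Nr1d1, Nr1d2 and Dbp), although its libraries overlapped those of the next group for Arntl and Dbp. Adult KO2 was highest for 6 (Per1, Per2, Per3, Cry2, Nr1d1 and Dbp), with overlap to the next group for Per1, Per2 and Dbp. Set 2 was highest for Clock and Nr1d2, set 1 for Arntl, and E19.5 KO7 for Cry1. The ranks of all tested genes were not counted, so these counts show nothing particular to the clock genes.

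Between stages, 9 of the 10 clock genes were higher in adult wild-type set 1 than in E19.5 wild type (limma on log2(FPKM + 1), Benjamini-Hochberg adjustment over 14322 genes, threshold 0.05). Adult brain differs widely from embryonic brain, and 56.0% of all tested genes were called in this comparison, 21.9% as higher. Dbp had the largest difference: 17.5 ± 1.58 FPKM (SD, n = 2) against 2.85 ± 0.868, a log2 difference of 2.28 ± 0.24 (SE) with an adjusted p of 1.29e-05. Nr1d1 followed with 45.0 ± 3.57 against 11.4 ± 0.503 FPKM (1.89 ± 0.11, adjusted p 2.71e-07), then Per3 with 8.10 ± 0.0117 against 2.04 ± 0.112 (1.58 ± 0.14, adjusted p 3.96e-06) and Nr1d2 with 1.31 ± 0.21 (adjusted p 2.99e-04). Per1 (1.08), Cry2 (0.81), Per2 (0.79), Clock (0.66) and Arntl (0.52) also rose, with adjusted p between 6.21e-04 and 0.0360. Leaving out any 1 of the 4 libraries compared lost the call of Clock, and leaving out set 1 replicate 1 or E19.5 wild-type replicate 1 also that of Per2. Cry1 alone had a difference below 0, -0.53 ± 0.21, with an adjusted p of 0.0539 that missed the threshold. The median over the 10 genes was 0.94, against -0.15 over all tested genes; scaling by median of ratios moved that of all genes to 0.00443. It also moved the calls over all genes from 3135 higher and 4885 lower to 4041 and 3830.

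In the KO2 genotype the same stage contrast called 8 of the 10 genes, all higher in adults (49.3% of all tested genes were called, 20.7% as higher). Dbp reached 38.0 ± 3.41 FPKM from 3.47 ± 1.17, a log2 difference of 3.15 ± 0.24 (adjusted p 1.84e-06). Per3 rose from 1.57 ± 0.103 to 12.9 ± 0.108 FPKM (2.44 ± 0.14, adjusted p 3.41e-07), Nr1d2 by 2.19 ± 0.21 and Nr1d1 by 2.18 ± 0.11. Per2 (1.48), Per1 (1.00), Cry2 (0.90) and Clock (0.63, adjusted p 0.0484) completed the 8. The call of Clock passed in 6 of 14 alternatives and was lost on leaving out any of the 4 libraries compared and with the replicate block. Arntl was not called: 8.34 ± 0.917 FPKM in adult KO2 against 9.98 ± 0.507 at E19.5, a log2 difference of -0.24 ± 0.12 (adjusted p 0.127), and Cry1 was at -0.02 ± 0.21. Both stage contrasts set tissues of differing makeup side by side: summed astrocyte markers (5 genes, all present) ranged from 113 to 330 FPKM at E19.5 and from 894 to 1236 in adults, and oligodendrocyte markers (4 genes) from 20.5 to 132 and from 1545 to 2850. The part of cell makeup in the stage differences was not tested.

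Whether the stage difference depends on the KO2 genotype was tested by the interaction, and none of the 10 genes passed limma's test (0.0628% of all tested genes did). At an unadjusted p under 0.05 there were 4 of 10, against 14.8% of all genes, a description only, since the genes were chosen with earlier results known. The smallest p were those of Arntl, at -0.76 ± 0.17 (adjusted p 0.104), and Per3, at 0.85 ± 0.20 (adjusted p 0.109); Nr1d2 was at 0.88 ± 0.30 and Dbp at 0.87 ± 0.34. With adult KO3 replicate 2 left out of the shared fit, Arntl and Per3 were called, and more of all tested genes were called too.

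**Figure D2:**
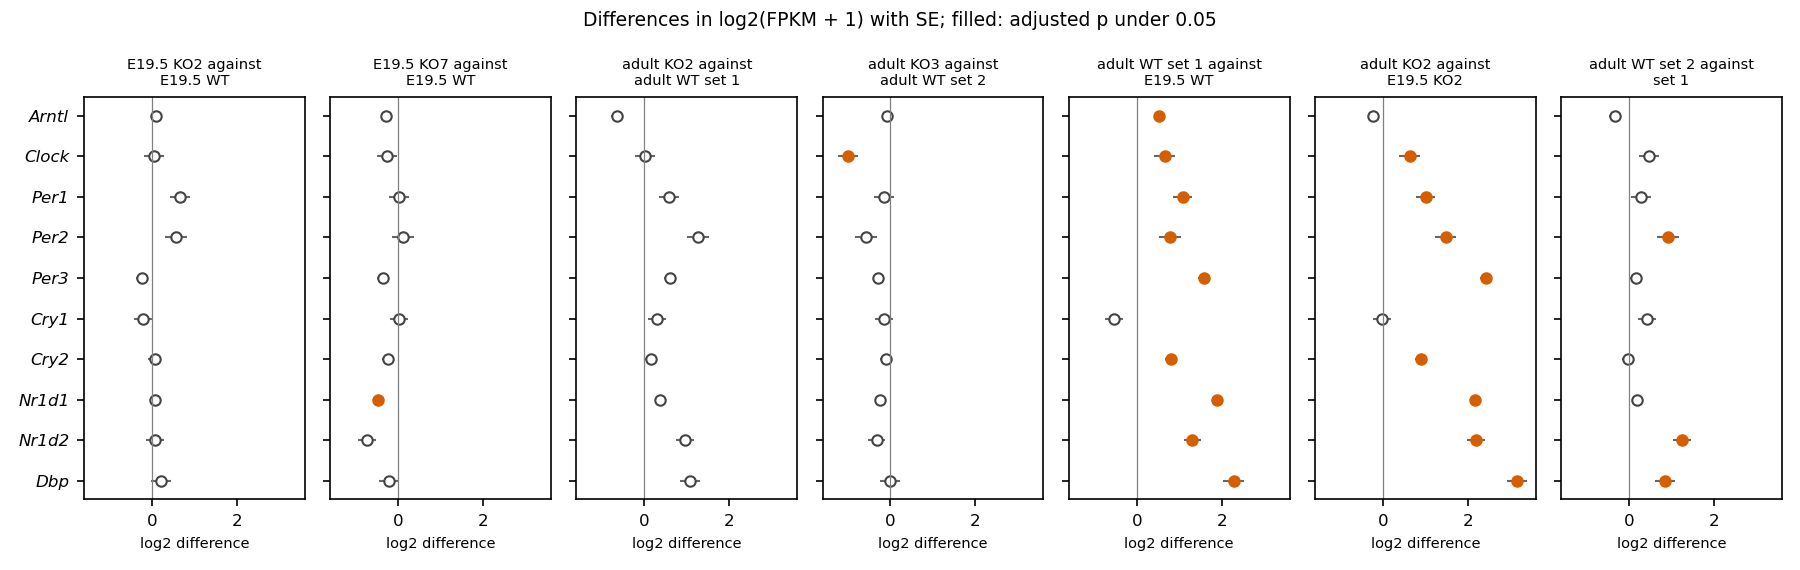
Differences in log2(FPKM + 1) between groups (x axis, first group minus second, bars are SE from the limma fit) for the 10 clock genes in 7 comparisons; filled points passed an adjusted p of 0.05. Calls numbered 9 and 8 of 10 in the stage comparisons, 3 between the adult wild-type sets and 1 each for E19.5 KO7 and adult KO3. KO2 had none at either stage. Of all tested genes, 56.0% and 49.3% were called in the stage comparisons and 20.9% between the sets. The shares were 4.45% for E19.5 KO7, 22.1% for adult KO3, 0.154% for adult KO2 and 1.28% for E19.5 KO2.

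In adult KO2 against wild-type set 1, 8 clock genes were higher and Arntl lower in both knockout libraries than in both wild-type ones, but none of the 10 passed limma's test over all genes (0.154% of tested genes did). Libraries without overlap were higher in KO2 for 30.0% of all tested genes and lower for 16.2%. At an unadjusted p under 0.05 there were 7 of the 10 clock genes, against 7.34% of all tested genes. The 10 genes were chosen with earlier results of these data known, so these shares are a description and not a test. Arntl stood at 8.34 ± 0.917 FPKM (SD, n = 2) in KO2 and 13.7 ± 0.777 in set 1, a log2 difference of -0.65 ± 0.12 with p 2.08e-04 and adjusted p 0.103. Per2 stood at 13.6 ± 0.321 against 5.12 ± 0.786 FPKM, 2.66 times the level and 1.26 ± 0.25 on the log2 scale (adjusted p 0.138). Dbp (2.18 times), Nr1d2 (1.99 times) and Per3 (1.60 times) had an adjusted p of 0.184 each, Nr1d1 (1.30 times) of 0.401 and Per1 (1.52 times) of 0.620. Single genes did pass under other settings: Dbp with a pseudocount of 10, Arntl with no filter on low values, and Nr1d2 with adult KO3 replicate 2 left out of the shared fit. Clock was at 10.2 ± 0.208 and 10.02 ± 0.703 FPKM, and its libraries overlapped. Genes that glucocorticoids induce are of interest here because the same hormones act on Per1 and Per2 and themselves follow the day: 3 of the 13 listed rose in KO2 (0.105% of all tested genes were called higher). Plin4 rose from 0.818 ± 0.142 to 4.31 ± 0.639 FPKM (log2 difference 1.54 ± 0.17, adjusted p 0.00660), Tsc22d3 (GILZ) from 22.0 ± 1.84 to 57.0 ± 6.82 (1.33 ± 0.15, adjusted p 0.00729) and Sgk1 from 16.9 ± 0.522 to 68.6 ± 7.35 (1.96 ± 0.24, adjusted p 0.00836). All 3 calls were lost with adult libraries only, with the wild-type sets as 1 group, without KO2 replicate 1 and without set 1 replicate 1, and Sgk1 was lost without set 1 replicate 2. Of the other lists none had a gene called: 9 loop partners, 3 PAR bZIP genes, 8 other rhythmic outputs, 10 kinases and ligases of PER and CRY, 11 immediate early genes and 8 temperature-responsive genes.
Markers of other regions also varied within these groups. Summed peptides and factors of the suprachiasmatic nucleus and hypothalamus (8 genes) ranged from 26.1 to 437 FPKM between the KO2 libraries and from 196 to 444 between those of set 1, choroid plexus markers (5 genes) from 121 to 1168 and from 168 to 341, and pituitary markers (3 genes) from 3.48 to 16.6 and from 21.8 to 49.2. Their part in the result was not tested.

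The adult wild-type sets, which carry no deletion, differed from each other in the same family. Set 2 was higher than set 1 in Nr1d2, Per2 and Dbp, 3 of the 10 genes (20.9% of all tested genes were called, 6.84% as higher). Nr1d2 stood at 36.3 ± 3.15 FPKM (SD, n = 2) against 14.6 ± 1.61, a log2 difference of 1.26 ± 0.21 (adjusted p 0.00232). Per2 stood at 10.9 ± 4.58 against 5.12 ± 0.786 (0.91 ± 0.25, adjusted p 0.0258) and Dbp at 32.4 ± 7.93 against 17.5 ± 1.58 (0.84 ± 0.24, adjusted p 0.0292). Arntl was at 10.6 ± 0.384 against 13.7 ± 0.777 (-0.34 ± 0.12, adjusted p 0.0677). Without set 1 replicate 1, set 1 replicate 2 or set 2 replicate 1, Nr1d2 kept its call and Per2 and Dbp lost theirs. With adult KO3 replicate 2 left out of the shared fit, Arntl, Clock and Cry1 were called too. That fit also called more of all tested genes between the sets. With adult libraries only, Per2 was lost. Within set 2 the replicates were far apart: replicate 2 stood at 0.524 times the level of replicate 1 for Per1 and 0.543 times for Per2. Among the loop partners Bhlhe41 (0.80 ± 0.21) and Bhlhe40 (0.77 ± 0.24) rose too, as did Hlf (0.59 ± 0.18), 1 of 3 PAR bZIP genes, and Coq10b (0.79 ± 0.21), 1 of 8 other rhythmic outputs. These calls, Bhlhe40, Bhlhe41, Hlf and Coq10b, were lost with adult libraries only and without either set 1 library or set 2 replicate 1. Of 13 glucocorticoid-induced genes, 4 were higher in set 2 (among them Plin4 and Tsc22d3) and 2 lower (Mt1 and Mt2, the metallothioneins), and of 11 immediate early genes 4 were higher. With adult libraries only, 2 glucocorticoid-induced genes were called higher, 1 lower, and no immediate early gene was called. Without set 1 replicate 1 the glucocorticoid-induced calls were Plin4 alone, without set 2 replicate 1 Plin4 and Tsc22d3, and the immediate early genes had none without set 1 replicate 2 or set 2 replicate 1. Beside these values stand the handling of the table and the cerebellum: summed granule cell markers (5 genes) ranged from 234 to 285 FPKM in set 2 and from 24.3 to 41.3 in set 1, where Gabra6 was listed at 0. Handling, region and collection time cannot be told apart from the set.

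Since adult KO2 and set 2 were both compared with set 1, their differences share those libraries and are not independent. Side by side, Per2 was at 1.26 and 0.91, Dbp at 1.08 and 0.84, Nr1d2 at 0.95 and 1.26, Per3 at 0.61 and 0.16, Nr1d1 at 0.38 and 0.18, and Arntl at -0.65 and -0.34 on the log2 scale, the KO2 value first. The stage contrast of the wild type used set 1 as well.

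In adult KO3 against set 2, 1 of the 10 clock genes passed, Clock, which was lower (22.1% of all tested genes were called, 8.20% as lower). Clock stood at 7.02 ± 3.58 FPKM (SD, n = 2) against 14.3 ± 0.144, a log2 difference of -1.01 ± 0.24 (adjusted p 0.0194). The KO3 replicates were at 9.55 and 4.48 FPKM, and the call of Clock was lost without replicate 2. Without replicate 1 more clock genes were called, as were more of all tested genes. The differences of Cry1 and Nr1d2 were then -0.54 and -0.67, and without replicate 2 they were 0.22 and 0.0177. The adult KO3 replicates stood apart from each other in general. The SD of their difference over all genes was 0.537 on the log2 scale, the widest of the 7 groups. Of the 10 clock genes 9 were lower in KO3 replicate 2 than in replicate 1, against 5 to 8 in the other groups. In set 2, where 8 were lower, the median replicate difference of the clock genes was -0.42, against -0.31 in KO3. Over all tested genes the median was -0.135 in set 2 and -0.0455 in KO3. Between KO3 and set 2, all 10 clock genes had a difference below 0 (median -0.21, against 0.00 over all tested genes). Yet Dbp was at -0.01 ± 0.24 and Arntl at -0.09 ± 0.12, and Per2 at -0.58 ± 0.25 (adjusted p 0.113). Glucocorticoid-induced genes rose for 7 of 13 (13.9% of all tested genes were called higher), with Tsc22d3 at 69.4 ± 10.4 against 37.4 ± 1.78 FPKM (0.87 ± 0.15, adjusted p 0.0101) and Sgk1 at 66.4 and 88.2 FPKM against 43.1 and 23.2 (1.25 ± 0.24, adjusted p 0.0111). Of the immediate early genes 2 of 11 fell (Npas4 and Btg2), and Gne and the ligase subunit Fbxl21 fell among the outputs and the kinases and ligases, by 0.59 and 0.60. Of 8 temperature-responsive genes 2 rose, the cold-shock gene Rbm3 (1.12 ± 0.25) and the chaperone Hsp90aa1 (0.75 ± 0.17). With adult libraries only, none of these companion calls was left. The glucocorticoid count fell without KO3 replicate 2, without set 2 replicate 1 and without set 2 replicate 2. It rose without KO3 replicate 1. The calls over all tested genes moved the same way in each of these fits. The calls of Gne, Npas4, Btg2, Fbxl21, Rbm3 and Hsp90aa1 were lost without KO3 replicate 2 and without set 2 replicate 1. Choroid plexus markers summed to 774 to 838 FPKM in KO3 and 509 to 553 in set 2, and red cell markers (3 genes) to 965 to 1008 and 60.8 to 117; their part was not tested.

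At E19.5 no clock gene passed in KO2 against wild type with limma (1.28% of all tested genes did), and 2 of the 10 had an unadjusted p under 0.05, against 16.1% of all genes. These were Per1, at 12.9 ± 0.104 against 7.77 ± 0.765 FPKM (SD, n = 2; log2 difference 0.66 ± 0.23, adjusted p 0.193), and Per2, at 4.25 ± 0.568 against 2.54 ± 0.347 (0.57 ± 0.25, adjusted p 0.295). In both, each KO2 library was above each wild-type one, as in Arntl, Cry2 and Nr1d1, 5 of the 10 genes. This held for 27.3% of all tested genes. Per3 and Cry1, 2 of the 10, were lower without overlap, as were 29.9% of all tested genes. Per1 was called when the fit held E19.5 libraries only. Of the 13 glucocorticoid-induced genes 2 rose: Sult1a1 from 2.84 ± 0.522 to 8.57 ± 0.360 FPKM (1.32 ± 0.22, adjusted p 0.0187) and Mt1 from 188 ± 10.1 to 1080 ± 148 (2.51 ± 0.43, adjusted p 0.0203), where 0.880% of all tested genes were called higher. Both calls were lost on leaving out any 1 of the 4 libraries. All 13 had a difference above 0, with a median of 0.54. Astrocyte markers were also higher in KO2 (309 to 330 FPKM summed, against 113 to 140), as were oligodendrocyte markers (65.5 to 132 against 20.5 to 23.9), and Xist was at 1.498 and 84.0 FPKM in the KO2 libraries against 117 and 106 in wild type. The part of these in the result was not tested.

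In E19.5 KO7, compared with the same wild-type libraries, Nr1d1 was lower: 8.01 ± 1.09 FPKM against 11.4 ± 0.503 (SD, n = 2), a log2 difference of -0.47 ± 0.11 (adjusted p 0.0425). It was the 1 call among the 10 (4.45% of all tested genes were called, 1.43% as lower), and leaving out any 1 of the 4 libraries lost it. Nr1d2 was at 2.76 ± 0.164 against 5.27 ± 0.0779 FPKM (-0.74 ± 0.21, adjusted p 0.0738) and Per3 at 1.37 ± 0.106 against 2.04 ± 0.112 (-0.36 ± 0.14, adjusted p 0.167). KO7 libraries lay below both wild-type ones, without overlap, for 6 of the 10 (Arntl, Clock, Per3, Cry2, Nr1d1 and Nr1d2), as they did for 29.6% of all tested genes. Among companions the kinase Gsk3b fell from 52.9 ± 0.0223 to 33.3 ± 0.627 FPKM (-0.65 ± 0.12, adjusted p 0.0133), Egr1 fell by 1.61 ± 0.31 (adjusted p 0.0181) and Ddit4 rose by 1.04 ± 0.24 (adjusted p 0.0342; 3.02% of all tested genes were called higher). All 3 calls were lost on leaving out any 1 of the 4 libraries. The KO7 libraries differ from wild type in sex-linked transcripts and in makeup. Ddx3y, on the Y chromosome, was at 7.72 and 7.07 FPKM in KO7 and listed at 0 in the other 12 libraries, and Xist at 0.0159 and 0.0403 against 117 and 106 in wild type. Red cell markers summed to 2474 to 2639 FPKM in KO7 and 94.8 to 518 in wild type, meningeal markers (3 genes) to 63.2 to 74.5 and 22.8 to 27.2. Sex and genotype cannot be told apart here, and the part of blood and meninges was not tested.

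The genes that work beside these 10 were counted by list. Of 9 loop partners, 5 rose and 1 fell from E19.5 wild type to adult set 1: Bhlhe40 (DEC1), an E-box repressor, went from 4.76 ± 0.183 to 21.2 ± 4.90 FPKM (log2 difference 1.93 ± 0.24, adjusted p 5.28e-05), Npas2, the stand-in for CLOCK in forebrain, from 2.76 ± 0.820 to 10.7 ± 2.78 (1.63 ± 0.22), Rora, the activator that competes at ROREs, from 6.36 ± 1.48 to 16.9 ± 3.25 (1.28 ± 0.19), and Timeless fell from 2.97 ± 0.0224 to 1.24 ± 0.0515 (-0.83 ± 0.12). The relatives of Dbp rose with it, Hlf from 3.71 ± 0.0101 to 26.0 ± 2.05 FPKM (2.52 ± 0.18, adjusted p 8.60e-07) and Tef from 14.8 ± 1.43 to 64.9 ± 6.30 (2.06 ± 0.15), while Nfil3 (E4BP4), which represses at the same D-boxes, fell from 13.6 ± 1.25 to 5.45 ± 0.990 (-1.19 ± 0.18, adjusted p 1.79e-04). In KO2 the stage contrast gave 6 higher and 1 lower loop partner, and again Hlf (2.99 ± 0.18) and Tef (2.22 ± 0.15) rose and Nfil3 fell by 0.68 ± 0.18. Of 10 kinases and ligases of PER and CRY, 5 fell and 2 rose in wild type, where 34.1% of all tested genes fell and 21.9% rose (5 and 1 in KO2, where 28.6% of all fell, or 4 fell and 4 rose there with median-of-ratios scaling). The casein kinases, which phosphorylate clock proteins, were among those that fell: Csnk1e from 96.1 ± 10.1 to 33.5 ± 2.50 FPKM (-1.49 ± 0.19) and Csnk2a1 from 51.3 ± 2.05 to 25.0 ± 0.843 (-1.01 ± 0.11). Among 8 other rhythmic outputs 2 rose (Usp2 by 2.11 ± 0.19, Wee1 by 1.04 ± 0.18) and 2 fell (Tspan4 and Cdkn1a). Immediate early genes, which neuronal activity induces, rose for 10 of 11, and of 8 temperature-responsive genes 1 rose (Hsph1) and 2 fell, the cold-shock genes Rbm3 (-2.82 ± 0.25) and Cirbp (-2.18 ± 0.31).

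**Figure D3:**
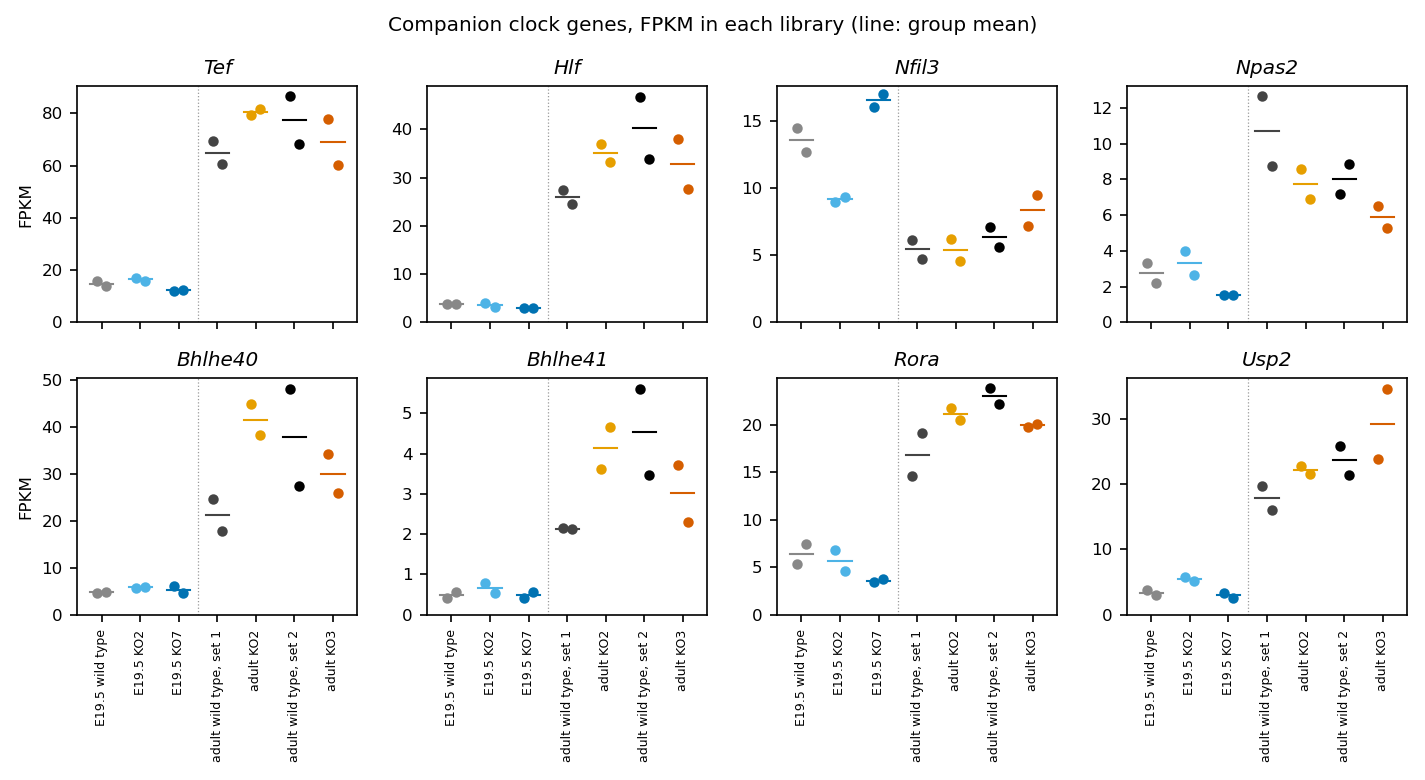
FPKM (y axis, from 0) of 8 companion genes of the clock in each library, by group on the x axis; points are libraries and short lines group means. Tef, Hlf, Npas2, Bhlhe40, Bhlhe41, Rora and Usp2 are higher in every adult library than in any E19.5 one, and Nfil3 is highest in E19.5 wild type and KO7.

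Arntl and Dbp, which lie at opposite ends of the loop, were set against each other in each library, since their ratio does not depend on a library's scale. Dbp over Arntl was 0.234 to 0.415 in the 6 E19.5 libraries. In adults it was 1.15 and 1.42 in set 1, 3.96 and 5.26 in KO2, 3.69 and 2.47 in set 2, and 3.56 and 2.89 in KO3. Set 1 was the lowest adult group without overlap, KO2 the highest, and set 2 and KO3 overlapped. Over the 8 adult libraries log2 values of Dbp and Arntl had r = -0.910, Dbp and Nr1d2 0.877, Dbp and Per2 0.844, Per1 and Per2 0.892, and Arntl and Clock 0.131. Over the 6 E19.5 libraries Dbp and Arntl had r = 0.552, Arntl and Nr1d2 0.883, and Per1 and Per2 0.861. These are descriptions over libraries that share group, handling and region, and the group differences given above enter them.

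**Figure D4:**
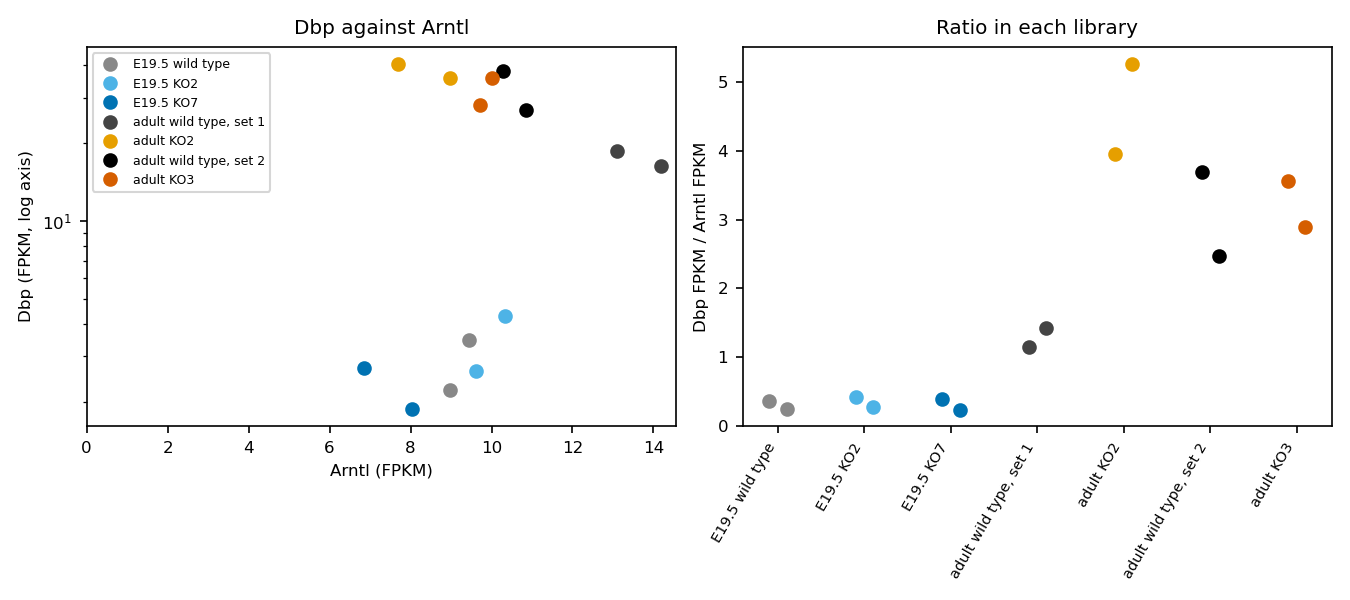
Left, Dbp (y axis, FPKM, log axis) against Arntl (x axis, FPKM) in the 14 libraries; right, the ratio of the 2 genes in each library by group, from 0. Adult libraries run from set 1, with high Arntl and low Dbp (ratios 1.15 and 1.42), to KO2, with low Arntl and high Dbp (3.96 and 5.26), and E19.5 libraries stay at 0.415 or less.

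The genes most like 3 of the members over the 14 libraries, after removing each stage's mean, were found by Pearson's r among all tested genes. For Dbp these were Paqr5 (0.886), D6Wsu163e (0.862), Etnppl (0.854), Abca8a (0.846) and Irs2 (0.841), with Nr1d2 (0.834) at rank 7, and the most opposite were Mmp14 (-0.819), Rpph1 (-0.761) and Il3ra (-0.758). For Per2 they were Pcdhga3 (0.911), the E-box repressors Bhlhe41 (0.909) and Bhlhe40 (0.897), Atp10a (0.897) and Zbtb40 (0.890), with Per1 (0.848) at rank 12, and the most opposite Apoc3 (-0.861), Fam181a (-0.838) and Fbxl8 (-0.807). For Arntl they were Wnt2 (0.815), Klhl23 (0.787), BC031361 (0.785), Sgcz (0.780) and Srcin1 (0.767), and the most opposite Xbp1 (-0.913), Tram1 (-0.864) and Rbbp4 (-0.855). Rpph1 and Apoc3 were listed at 0 in all E19.5 libraries, so their likeness rests on the adult ones. Others were below 1 FPKM in every E19.5 library. Their highest values there were 0.371 (Paqr5), 0.469 (Etnppl), 0.775 (Bhlhe41), 0.574 (Fbxl8) and 0.509 FPKM (Wnt2).

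By RefSeq, Nr1d1 overlaps Thra on the genome, Dbp overlaps Sphk2, Per3 overlaps Uts2 and Cry2 overlaps D930015M05Rik. Per2 also overlaps Gm35591, Arntl overlaps Gm33721, and Clock overlaps Ube2n-ps1 and Gm7467, genes for which no FPKM are listed. Whether strand was used in counting is not given in the sources used here, so reads of the pairs cannot be told apart. Thra fell where Nr1d1 rose, by 0.56 ± 0.13 from E19.5 wild type to adult set 1. Sphk2 rose in that contrast by 1.11 ± 0.14, from 5.84 and 6.90 FPKM to 14.5 and 15.3. In adult KO2 against set 1, Sphk2 was at 0.39 ± 0.14 and Thra at -0.07 ± 0.13, neither called. Sphk2 was called higher in adult KO3 against set 2 (0.58 ± 0.14, limma adjusted p 0.0214). Thra was called lower in set 2 against set 1 (-0.55 ± 0.13, limma adjusted p 0.0130). Uts2 stayed at 0.343 FPKM or less, and D930015M05Rik at 0.0665 or less.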

How the data were processed

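The deposited table gives FPKM per gene in 14 brain libraries, made by the authors. Cufflinks 2.2.1, TopHat2 2.1.1 and CASAVA, and the build mm9, are listed with no roles, per the submitters' processing notes. Per the labels' protocols, RNA was taken with TRIzol and polyadenylated RNA was purified. The depth per library is unknown, since FPKM keep no read totals and the low values gave no common step, so no counting interval is given. After dropping 2 rows without a gene name, log2(FPKM + 1) was fitted with limma 3.58.1 (R 4.3.3, trended variance) to 7 group means with 7 residual degrees of freedom, over the 14322 genes that reached 1 FPKM in 2 or more libraries. P-values were adjusted by Benjamini-Hochberg over all of them, with a threshold of 0.05. A log2 difference on this scale understates the change of low genes. The fit was tested on simulated data. Alternatives were pseudocounts of 0.1 and 10, no filter or 5 FPKM, 2 other scalings, the wild-type sets as 1 group, single-stage fits, a replicate block, no variance trend and leaving out libraries; the fit without adult KO3 replicate 2 was chosen after seeing the data.

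The members and gene lists were chosen with earlier results of these data known. Named are all 10 members; up to 4 genes per companion list and comparison with the smallest adjusted p, among those past the threshold; and the 5 highest and 3 lowest correlations with Dbp, Per2 and Arntl. Members of a list counted as 5 or fewer are also named (Mt2). Genes of marker lists, of overlapping transcripts and of sex were added for checks, Gabra6, Ddx3y and Xist after their values were seen. One result on a loop partner is not reported here.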

Additional observations from a re-analysis of the deposited data

How the results depend on the processing

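The stage counts, 9 and 8 of 10, stayed between 7 and 10 under every alternative run; Clock was the call lost in KO2. For E19.5 KO2 the count of 0 became 1 (Per1) with only the libraries of the stage. For E19.5 KO7 the count of 1 became 0 with a pseudocount of 10, with the wild-type sets as 1 group, with the replicate block, with no variance trend and on leaving out any library; it became 3 with quantile scaling (Nr1d1, Nr1d2 and Per3), and 2 (Nr1d1 and Nr1d2) with only the libraries of the stage or with adult KO3 replicate 2 left out of the shared fit. For adult KO2 against set 1 the count of 0 became 1 with a pseudocount of 10, with no filter and with that library left out. For adult KO3 the count of 1 became 2 with quantile scaling (Clock and Nr1d1), 0 within adults only and 0 to 4 on leaving out a library. For set 2 against set 1 the count of 3 ran from 1 to 4 on leaving out a library, and became 2 within adults only (Per2 lost), 4 with no filter (Arntl joining) and 6 without KO3 replicate 2. The interaction count of 0 became 1 with quantile scaling (Per3) and 2 without KO3 replicate 2. The causes were not tested. Calls over all genes moved by more than 1.5 times too: from 3164 to 24 within adults only, 8 without set 2 replicate 1 and 6773 without KO3 replicate 1 for KO3, from 2990 to 969 within adults only for the sets, from 637 to 1376 within E19.5 and 145 with the sets as 1 group for KO7, and from 183 to 427 and 38 for E19.5 KO2 under those settings. Leaving out E19.5 wild-type replicate 1 took KO7 from 637 to 47 and E19.5 KO2 from 183 to 6. For adult KO2 against set 1 they went from 22 to 3 within adults only, 65 with no filter and 1 without set 1 replicate 1, and for the interaction from 9 to 271 without KO3 replicate 2. The fit without KO3 replicate 2 called more of all tested genes in every comparison it held, also between the sets and at E19.5. Quantile scaling changed higher and lower calls from 1990 and 1174 to 1609 and 1808 (KO3) and from 980 and 2010 to 1631 and 1470 (sets). Median-of-ratios scaling gave 1995 and 1841 (KO3).

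The labels do not say whether the replicate numbers pair samples, and the correlations cannot decide it. Correlations of deviations between groups ran from -0.33 to 0.23, the highest between adult KO2 and set 1. The replicate block gave 10 and 7 for the stage comparisons, 1 for adult KO3, 3 for the sets and 0 for the others.

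Directions that turned belong to log2 differences that missed the threshold. Clock in adult KO2 against set 1 became -0.0326 with quantile and -0.0307 with median-of-ratios scaling, -0.21 with the sets as 1 group, and ran from -0.0415 to 0.0887 on leaving out a library. Cry1 across stages in KO2 became 0.0303 (quantile) and 0.0691 (median of ratios), and ran from -0.0459 to 0.0018. In KO3, the sets as 1 group gave 0.0519 for Cry1, 0.40 for Dbp and 0.30 for Nr1d2, and leaving out a library -0.54 to 0.22 (Cry1), -0.35 to 0.13 (Cry2), -0.26 to 0.23 (Dbp), -0.67 to 0.0177 (Nr1d2) and -0.59 to 0.30 (Per1). Between sets, Cry2 became 0.0736 with quantile scaling, and leaving out a library gave -0.26 to 0.22 (Cry2), -0.16 to 0.73 (Per1) and -0.0289 to 0.35 (Per3). At E19.5 the same gave, in KO2, -0.0626 to 0.48 (Dbp) and -0.16 to 0.31 (Nr1d2), and in KO7 -0.0142 to 0.0569 (Cry1), -0.45 to 0.0161 (Dbp) and -0.0613 to 0.12 (Per1). For the interaction, Per1 became 0.0533 with a pseudocount of 10, and leaving out a library gave -0.0940 to 0.0363 (Clock), -0.0233 to 0.20 (Cry2) and -0.25 to 0.0992 (Per1).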
